A study of Mus musculus with 4 samples.

Results

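The genes described here are the caspases, the BCL2 family and the genes that act directly with them in cell death and inflammasome signalling. They were taken as every array probe whose gene name begins with Bcl2, or with Casp or Birc and a digit, together with 17 genes listed by name, among them Bax, Bid, Pmaip1, Mcl1, Xiap, Apaf1, Nlrp3 and Pycard. That gave 44 genes on 62 of 55681 probes. Of these, 41 genes could be tested among 29114 genes and named transcripts on the array.

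The samples are lumbar cord from male ICR mice of an outbred stock, aged 8 weeks. In 2 mice the L5 spinal nerve had been tied tightly (spinal nerve ligation, SNL), a surgical model of neuropathic pain, and in 2 mice the same nerve had been exposed and left untied (sham). All 4 animals were killed 10 days after surgery and perfused with saline, and each gave 1 RNA sample and 1 one-colour Agilent array. The labels name the L4 to L5 segments in one field and L5 cord in another, and the side of the cord is not stated in the sources used here, so tissue far from the injured nerve may be part of each sample.

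Apoptosis runs along an intrinsic and an extrinsic route. In the intrinsic route, BH3-only proteins sense stress and bind the pro-survival BCL2 proteins or activate Bax and Bak1, which open pores in the outer mitochondrial membrane, and released cytochrome c then assembles Apaf1 and caspase 9. In the extrinsic route, death receptors engage caspase 8, and both routes end in the executioner caspases, among them caspase 6. The inhibitor of apoptosis (IAP) proteins restrain some caspases. Caspases 1, 4 and 12 are grouped here as a separate, inflammatory branch. In that branch, inflammasome platforms such as Nlrp3 with the adaptor Pycard activate caspase 1, which leads to cytokine release and lytic death. Injury of a peripheral nerve is known to activate microglia in the cord segment it enters, and some caspases act in microglia without killing them.

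Values are log2 processed signals minus the array's own 75th percentile, so that 0 marks the signal of a spot at that percentile. Levels are comparable between mice for 1 probe and not between probes. The share of spots well above background was 74.9% and 78.1% on the SNL arrays, against 82.1% and 81.9% on the sham arrays, and no spot was saturated. A surrogate signal stood in for dim values at 7878 and 6515 spots on the SNL arrays, against 5136 and 5195 on the sham arrays. Probes of the genes described here that were not well above background on any array read 0.12 to 1.58 log2 units higher in SNL. All 4 arrays lay on 1 slide, with both SNL arrays in one row and both sham arrays in the other, so slide row and surgery cannot be told apart. Across genes, which are not independent replicates, arrays correlated at 0.988 between SNL mice, at 0.991 between sham mice and at 0.982 to 0.984 between groups. With 2 mice per group, p-values reflect the spread of very few animals.

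The largest differences were those of 3 genes. The BCL2 family genes Bcl2a1d and Bcl2a1c, grouped here with the pro-survival genes, were 2.96-fold and 2.92-fold higher in SNL cord than in sham cord. The BH3-only gene Pmaip1 (Noxa) was 2.73-fold higher. Smaller positive differences were seen for the inflammasome adaptor Pycard, the inflammatory caspase Casp4, the IAP gene Birc3, the BH3-only genes Bid and Hrk and the executioner caspase Casp6. Casp12 was lower. None of the 41 genes passed limma's test at a Benjamini-Hochberg adjusted p under 0.05, either higher or lower, and the lowest adjusted p was 0.0964. Over all genes tested, 0.161% passed as higher and 0.0103% as lower.

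At an unadjusted p under 0.05, 9 of the 41 genes were higher in SNL cord (22.0%) and 1 was lower (2.44%), against 6.67% higher and 5.48% lower over all genes tested. Both SNL mice lay above both sham mice for 22 of the 41 genes (53.7%) and below both for 5 (12.2%), against 24.9% and 20.9% over all genes. The groups overlapped for the other 14. The median log2 change was 0.11 over the 41 genes and 0.03 over all genes, and 27 of 41 genes (65.9%) were above 0, against 54.9% of all genes. Most differences were small, since 28 of the 41 were under 0.25 in size on the log2 scale, with a median SE of 0.12.

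**Figure D1:**
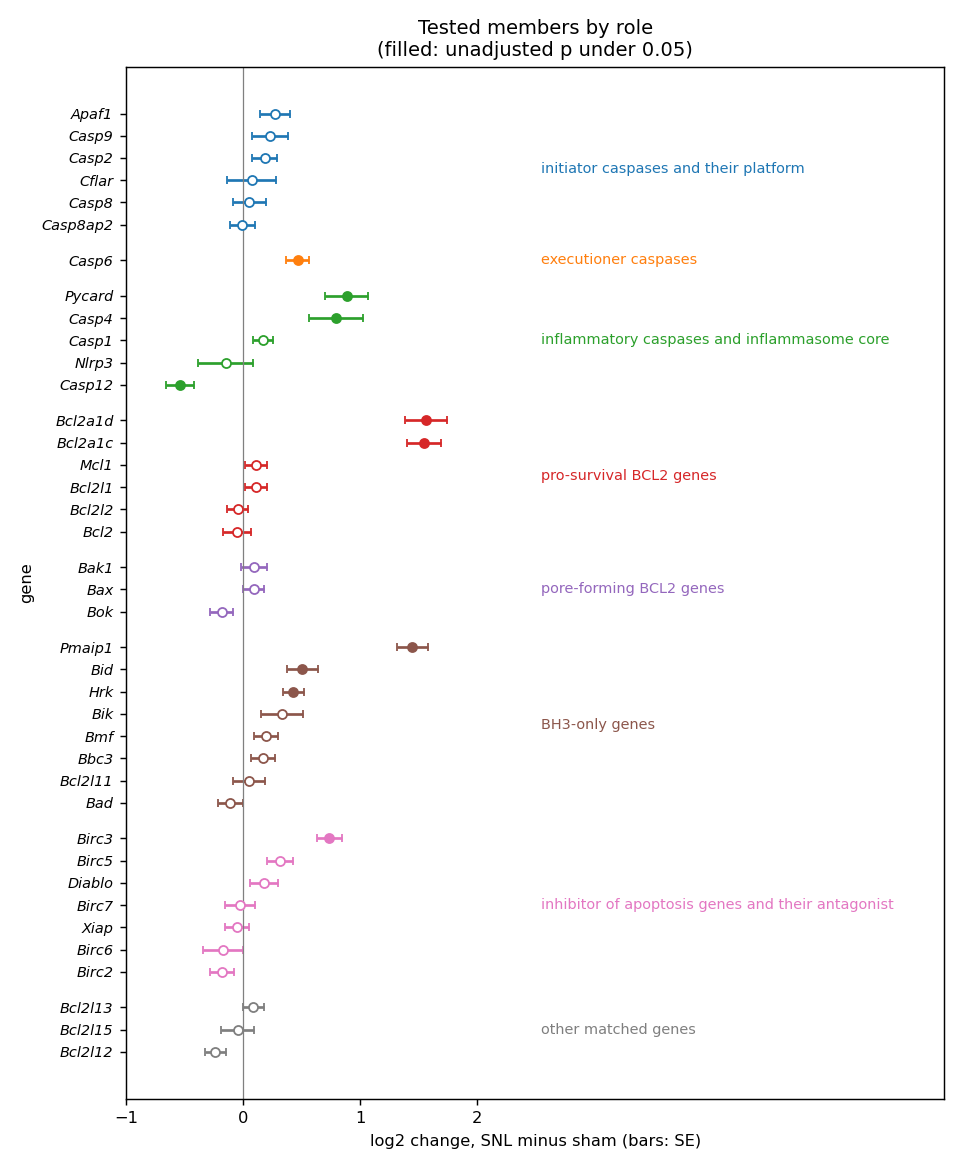
Log2 change, SNL minus sham, of 39 of the 41 tested genes on the horizontal axis, grouped and coloured by role, with the genes listed down the page. Points are limma estimates from 2 mice per group and bars are SE; filled points mark an unadjusted p under 0.05, and 3 genes lie above 1 while Casp12 lies lowest at -0.54.

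The count of 9 was lower without either sham mouse, and so was the share over all genes. Without sham replicate 2 it was 4, against 4.30% of all genes, and without sham replicate 1 it was 6, against 5.18% of all genes. Without SNL replicate 1, whose skeletal muscle signal stands apart, it was 8, against 9.42% of all genes. All 9 genes kept a positive log2 change, and Casp12 a negative one, under each of 12 other ways of processing or of leaving out a mouse. The groups did not overlap for any of them, so leaving out a mouse could not turn a sign. A change of model alone leaves the log2 change as it is, so neither kind of setting tests the sign.

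**Figure D2:**
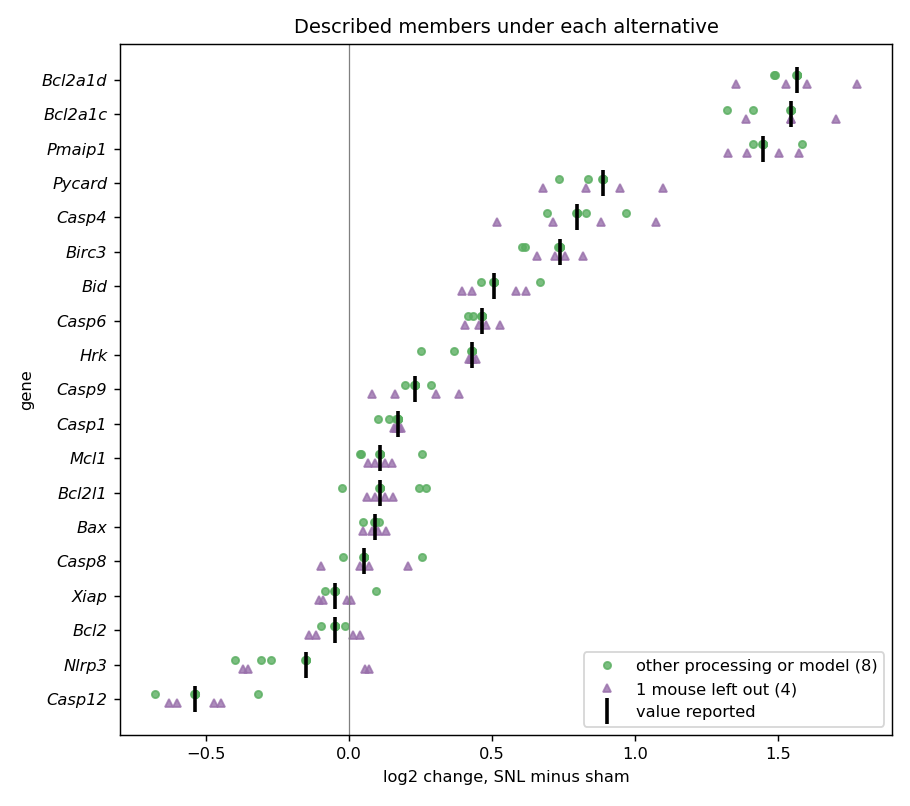
Log2 change, SNL minus sham (horizontal axis), of 19 genes as reported (black bars), under 8 other ways of processing or modelling (green circles) and with each of 4 mice left out in turn (purple triangles). The 9 uppermost genes stay right of 0 and Casp12 left of it, while genes near 0 such as Casp8, Xiap, Bcl2 and Nlrp3 fall on both sides. With a mouse left out, the 9 genes and Casp12 could not cross 0, since their groups did not overlap.

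Among the BH3-only genes, 3 of 8 were higher at an unadjusted p under 0.05 and none was lower, with a median log2 change of 0.26. The shares over all genes tested were 6.67% higher and 5.48% lower, and no role was tested as a set. Pmaip1 encodes Noxa, which neutralises Mcl1 and the A1 protein and is a classical p53 target. Its log2 signal was 0.87 and 0.98 in the SNL mice, against -0.40 and -0.65 in the sham mice. The SNL mice were both high and close to each other, and the groups did not overlap. The log2 change was 1.45 ± 0.13 (SE, n = 2 per group), or 2.73-fold, with an adjusted p of 0.0964 (limma), and its 95% interval ran from 1.06 to 1.83. Pmaip1 passed at adjusted p = 0.0372 with normexp background correction, at 0.0447 with no filter on dim probes and at 0.00401 with a variance trend and robust estimation. With no filter its log2 change is the same, and 34496 genes enter the fit, of which 12.4% were higher at the unadjusted threshold.

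Bid links the death receptors to the mitochondria, since caspase 8 cuts it into an active fragment. Its log2 signal was -0.12 and -0.34 in the SNL mice, against -0.81 and -0.66 in the sham mice, a change of 0.51 ± 0.13 (adjusted p = 0.319). Hrk (harakiri) is a BH3-only gene known from neurons deprived of growth factor. It stood at -1.03 and -1.002 in the SNL mice, against -1.44 and -1.45 in the sham mice, a change of 0.43 ± 0.09 (adjusted p = 0.246). Within each group the pair of Hrk values lay within a few hundredths of each other, so the groups were well apart, but with normexp correction the change was 0.25. The other BH3-only genes ran from -0.11 for Bad to 0.33 for Bik, with Bmf at 0.20, Bbc3 (Puma), another p53 target, at 0.17 and Bcl2l11 (Bim) at 0.05. None of these 5 passed at the unadjusted threshold, although for Bik, Bmf and Bbc3 both SNL mice were above both sham mice.

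Of the pro-survival BCL2 genes, 2 of 6 tested were higher and none lower at the unadjusted threshold, against 6.67% and 5.48% of all genes. Both were members of the A1 subfamily, which myeloid and lymphoid cells express. Bcl2a1d had log2 signals of -0.93 and -0.86 in the SNL mice, against -2.25 and -2.68 in the sham mice. The change was 1.57 ± 0.18 (95% interval 1.04 to 2.09, adjusted p = 0.136). Bcl2a1c had log2 signals of -3.94 and -3.94 in the SNL mice, against -5.33 and -5.64 in the sham mice, a change of 1.55 ± 0.15 (95% interval 1.13 to 1.97, adjusted p = 0.0971). For both genes the SNL mice nearly coincided and lay more than 1 log2 unit above either sham mouse. With a variance trend and robust estimation they passed, at adjusted p = 0.0156 for Bcl2a1d and 0.0453 for Bcl2a1c. Bcl2a1c also passed with no filter on dim probes (0.0447), where Bcl2a1d did not (0.0514). The log2 changes of both are the same in that setting, which differs in the genes that enter the fit. Under the other alternatives neither passed. With the replicate number as a block, adjusted p was 0.327 for Bcl2a1d and 0.277 for Bcl2a1c (limma).

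The A1 genes are near-identical copies, so which copy a probe reads is uncertain. The counts here take Bcl2a1c and Bcl2a1d as 2 genes, although their changes may not be separate results. Protein sequences were not analysed, so whether each copy encodes a working survival protein is not known here. The probes of these 2 genes are printed because they show that the array reads them at different sites: their longest common run is 6 of 60 bases. The Bcl2a1c probe lies on chromosome 9 of mm9 at 114239422 to 114239481 on the plus strand and the Bcl2a1d probe at 88618165 to 88618224 on the minus strand, and where these sites lie in the transcripts was not analysed here.
Bcl2a1c probe: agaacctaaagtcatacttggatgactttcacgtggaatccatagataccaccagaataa
Bcl2a1d probe: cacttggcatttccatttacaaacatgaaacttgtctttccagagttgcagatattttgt

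The promoters of the same 2 genes, from RefSeq on GRCm38.p6, are printed because the pair was high together. Each window holds 300 bases, mostly before the annotated start, and capitals mark the longest run that both share, 108 of 300 bases. The run lies nearer the 3′ end of the Bcl2a1d window than of the Bcl2a1c window. The Bcl2a1c window is chr9:114329885-114330184 on the plus strand and the Bcl2a1d window chr9:88731801-88732100 on the minus strand.
Bcl2a1c promoter: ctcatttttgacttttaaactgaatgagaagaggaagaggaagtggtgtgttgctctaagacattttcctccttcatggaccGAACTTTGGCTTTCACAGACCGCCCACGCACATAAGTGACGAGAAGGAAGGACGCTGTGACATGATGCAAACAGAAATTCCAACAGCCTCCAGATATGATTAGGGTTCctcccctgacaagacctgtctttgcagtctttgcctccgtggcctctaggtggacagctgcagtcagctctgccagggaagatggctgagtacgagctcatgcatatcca
Bcl2a1d promoter: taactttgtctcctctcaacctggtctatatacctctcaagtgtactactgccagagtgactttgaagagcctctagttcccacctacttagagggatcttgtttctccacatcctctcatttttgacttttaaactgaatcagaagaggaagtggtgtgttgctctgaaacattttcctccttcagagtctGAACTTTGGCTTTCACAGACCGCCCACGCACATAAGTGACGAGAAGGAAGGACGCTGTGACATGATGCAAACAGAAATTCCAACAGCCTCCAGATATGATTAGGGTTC

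Such windows were found for 39 of the 44 genes, 8 of them among the 9 genes higher at the unadjusted threshold. Letter patterns of 7 kinds were searched on both strands, all chosen after the expression values were seen. The pattern TGANTCA, a loose form of the AP-1 site that takes any base in the middle, was found in 1 gene, Bcl2a1d, where that base is A. It was found in 8.97% of 27025 genes with a window. The ETS pattern GGAAGTG was found in 7 genes, among them Bcl2a1c, Bcl2a1d and Pycard, and in 12.5% of all genes. The CRE pattern TGACGTCA was found in Birc2 alone of these genes and in 2.03% of all genes. The other 4 patterns were loose forms of the NF-kB site and overlap one another. GGG and TTTCC separated by any 2 bases were found in 5 genes (Bbc3, Bcl2l1, Birc5, Casp4 and Mcl1) and in 1.89% of all genes. The narrower form with A as the first of those bases was found in Birc5 alone (0.466% of all genes). GGGA and TCC separated by any 3 bases were found in 6 genes, of which Hrk was higher (5.21% of all genes), and GGGGA and TTCC separated by any 1 base in Casp4 alone (0.392%). A match describes letters in the window and no binding was measured.

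The other pro-survival genes differed little. Bcl2, the founder of the family, had log2 signals of -0.92 and -0.74 in the SNL mice, against -0.71 and -0.84 in the sham mice, and the groups overlapped. Its change was -0.05 ± 0.12, with a 95% interval of -0.40 to 0.30 (adjusted p = 0.898). Bcl2l1, which encodes Bcl-xL, the main survival protein of mature neurons, stood at 2.62 and 2.65 in the SNL mice, against 2.57 and 2.48 in the sham mice (0.11 ± 0.09, adjusted p = 0.705). Mcl1, a short-lived survival protein, was at 2.25 and 2.21 in the SNL mice, against 2.16 and 2.08 in the sham mice (0.11 ± 0.09, adjusted p = 0.703). For both genes the SNL mice were above the sham mice, with 95% intervals reaching from -0.16 to 0.38. Bcl2l2 was at -0.05, with both SNL mice below both sham mice by a small margin. Bcl2l10 was not well above background on any array and was not tested.

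No pore-forming gene passed at the unadjusted threshold. Bax had log2 signals of 1.37 and 1.39 in the SNL mice, against 1.25 and 1.33 in the sham mice, a change of 0.09 ± 0.09 with a 95% interval of -0.18 to 0.36 (adjusted p = 0.745). The SNL mice lay just above the sham mice. Bak1 was at 0.09 with overlapping groups, and Bok, a relative of Bax and Bak1, was at -0.18 with both SNL mice below both sham mice.

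**Figure D3:**
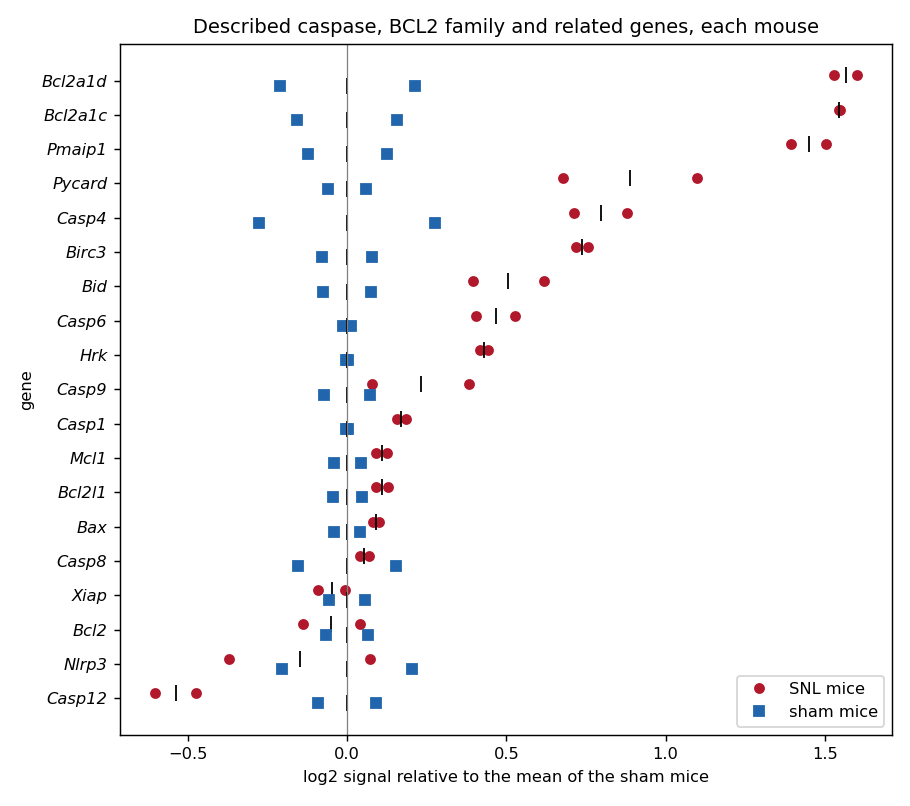
Log2 signal of each mouse relative to the mean of the sham mice (horizontal axis) for 19 of the genes described with all 4 values, ordered by log2 change. Red circles are SNL mice, blue squares sham mice and black ticks group means; for the 9 uppermost genes both SNL mice lie above both sham mice, and for Casp12 both lie below.

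Among the initiator caspases and their platform, none of 6 genes passed at the unadjusted threshold in either direction, and their changes ran from -0.01 for Casp8ap2 to 0.28 for Apaf1. Casp8, which death receptors activate, had log2 signals of -1.74 and -1.71 in the SNL mice, against -1.93 and -1.62 in the sham mice, so the SNL values fell between the sham values. Its change was 0.05 ± 0.14 (95% interval -0.36 to 0.47, adjusted p = 0.910). Casp9, the caspase of the apoptosome, stood at 1.14 and 0.84 in the SNL mice, against 0.68 and 0.83 in the sham mice (0.23 ± 0.15, adjusted p = 0.621). The lower SNL mouse and the higher sham mouse were almost level, and the change was 0.08 without SNL replicate 1 and 0.38 without SNL replicate 2. Casp2, a caspase linked to DNA damage, was at 0.18, and Cflar, which encodes the caspase 8 inhibitor c-FLIP, at 0.07 on its brightest probe.

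Among the executioner caspases, Casp6, which is linked to axon degeneration in developing neurons, was higher at the unadjusted threshold. Its log2 signal was -0.53 and -0.66 in the SNL mice, against -1.05 and -1.07 in the sham mice, a change of 0.47 ± 0.10, or 1.38-fold (95% interval 0.18 to 0.75, adjusted p = 0.256). The groups did not overlap.

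The inflammatory caspases and inflammasome core went in both directions, with 2 of 5 genes higher and 1 lower at the unadjusted threshold. Among all genes, 6.67% were higher and 5.48% lower. Pycard encodes ASC, the adaptor that joins sensors such as Nlrp3 to caspase 1. Its log2 signal was 0.00 and -0.42 in the SNL mice, against -1.04 and -1.16 in the sham mice, a change of 0.89 ± 0.18, or 1.85-fold (adjusted p = 0.251). The SNL mice differed from each other more than the sham mice did, yet both were above them. Casp4, which encodes the caspase that senses cytosolic lipopolysaccharide and in mice is often called caspase 11, stood at -1.79 and -1.96 in the SNL mice, against -2.39 and -2.95 in the sham mice. The change was 0.80 ± 0.23, or 1.74-fold (95% interval 0.13 to 1.46, adjusted p = 0.351), and was 0.52 without sham replicate 2, the lower of the sham mice.

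Casp12, an inflammatory-branch caspase associated with endoplasmic reticulum stress in mice, was the 1 gene lower at the unadjusted threshold. Its log2 signal was -4.77 and -4.90 in the SNL mice, against -4.21 and -4.39 in the sham mice, a change of -0.54 ± 0.12, or 1.45-fold lower (adjusted p = 0.270). With normexp correction the change was -0.32 and did not pass at the unadjusted threshold. Nor did it pass with a variance trend and robust estimation, without SNL replicate 2 or without sham replicate 1. Casp1, which cuts interleukin 1 beta, stood at 0.15 and 0.12 in the SNL mice, against -0.03 and -0.04 in the sham mice (0.17 ± 0.09, adjusted p = 0.547). Both SNL mice were above both sham mice by a small margin. Nlrp3 stood at -5.28 and -4.84 in the SNL mice, against -4.71 and -5.12 in the sham mice, overlapping groups with a change of -0.15 ± 0.24 (adjusted p = 0.842).

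Casp1, Casp4 and Casp12 are neighbours on chromosome 9 of mm9, with 29.4 kb between the probes of Casp1 and Casp4 and 36.3 kb between those of Casp4 and Casp12. Along this stretch the log2 changes were thus 0.17, 0.80 and -0.54. Casp4 has 2 probes on the plus strand, at 5336658 to 5336717 and 5336663 to 5336722, which gave changes of 0.87 and 0.80. They are printed because they share 55 of 60 bases (lower case; capitals mark the bases of each that the other lacks) and so are 1 measurement, not 2.
Casp4 probe 1: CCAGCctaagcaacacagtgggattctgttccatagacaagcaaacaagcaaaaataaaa
Casp4 probe 2: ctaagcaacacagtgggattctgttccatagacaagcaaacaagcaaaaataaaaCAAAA

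Of the IAP genes and their antagonist Diablo, which encodes Smac, 1 of 7 was higher and none lower at the unadjusted threshold, with a median change of -0.03. The shares over all genes were 6.67% higher and 5.48% lower. Birc3 encodes cIAP2, a ubiquitin ligase of tumour necrosis factor signalling that NF-kB induces. Its log2 signal was -3.48 and -3.52 in the SNL mice, against -4.16 and -4.32 in the sham mice, a change of 0.74 ± 0.11, or 1.67-fold (95% interval 0.43 to 1.04, adjusted p = 0.167). On this probe the groups did not overlap and lay far apart for their spread. On the second probe of Birc3 the groups overlapped, with a change of 0.49 ± 0.38. Birc2 (cIAP1), the relative of Birc3, whose probe lies 35.7 kb from the first Birc3 probe on the same chromosome, was at -0.18 with both SNL mice below both sham mice. Xiap, the IAP that inhibits caspases directly, stood at 0.70 and 0.79 in the SNL mice, against 0.74 and 0.85 in the sham mice, a change of -0.05 ± 0.10 with a 95% interval of -0.34 to 0.25 (adjusted p = 0.882).

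Birc5 encodes survivin, which also serves in mitosis. It lay nearest to the unadjusted threshold among genes outside it, at 0.31 ± 0.11 (95% interval from just below 0 to 0.63, adjusted p = 0.412), and both SNL mice, at -0.47 and -0.65, were above both sham mice, at -0.87 and -0.88. Birc6 was at -0.17, Birc7 at -0.03 and Diablo at 0.18. Of the remaining genes that share a family name, Bcl2l12 was at -0.24, with both SNL mice (-1.21 and -1.20) below both sham mice (-0.98 and -0.96). Bcl2l13, a mitochondrial protein, was at 0.09 with both SNL mice above both sham mice, and Bcl2l15 at -0.05 with overlapping groups. Bid and Bcl2l13 have probes 0.604 kb apart on opposite strands of chromosome 6. Casp14, a caspase of skin, and Bcl2l14 were not well above background on any array and were not tested.

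Several genes are read by more than 1 probe, and these did not always give the same change. Of 12 genes with more than 1 probe that passed the background filter, the changes had the same sign in 7 and differed in sign in 5, which were Bad, Bcl2l15, Birc5, Casp8ap2 and Cflar. A fit over all 44313 such probes was added after the data had been seen. Cflar differed most. It is known to give long and short proteins from spliced transcripts, and the files annotate 1 probe to transcript variant 2 and 2 probes to variant 1.

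The Cflar variant 2 probe had log2 signals of -1.23 and -1.51 in the SNL mice, against -2.15 and -2.10 in the sham mice. Its change was 0.75 ± 0.14 (adjusted p = 0.227 over all probes). The variant 1 probes gave -0.03 ± 0.13 and -0.16 ± 0.16, and the brightest probe, annotated to another transcript, gave 0.07 ± 0.21. Within each mouse, the variant 2 probe minus the mean of the variant 1 probes was 0.62 and 0.19 in the SNL mice, against -0.61 and -0.29 in the sham mice, so the groups did not overlap in this difference. It was chosen after the values were seen and has no test of its own. The variant 2 probe and 1 of the variant 1 probes are printed because they show that the array reads Cflar at different sites, at 58789994 to 58790053 and 58811116 to 58811175 on the plus strand of chromosome 1 of mm9.
Cflar variant 2 probe: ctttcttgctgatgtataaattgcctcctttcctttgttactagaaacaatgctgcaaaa
Cflar variant 1 probe: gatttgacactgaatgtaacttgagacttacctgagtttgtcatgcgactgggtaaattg

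For Mcl1 the probe that stands for the gene gave 0.11 and the other probe 0.40 ± 0.09, with log2 signals of -0.64 and -0.61 in the SNL mice, against -1.02 and -1.03 in the sham mice. For that other Mcl1 probe the groups did not overlap. In the same order, the Bcl2l1 probes gave 0.11 and 0.38, and the Diablo probes 0.18 and 0.43. The Birc3 probes gave 0.74 and 0.49, the Nlrp3 probes -0.15 and -0.65, and the 3 Birc5 probes 0.31, -0.11 and 0.39. The second Nlrp3 probe was well above background on 2 of 4 arrays.

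**Figure D4:**
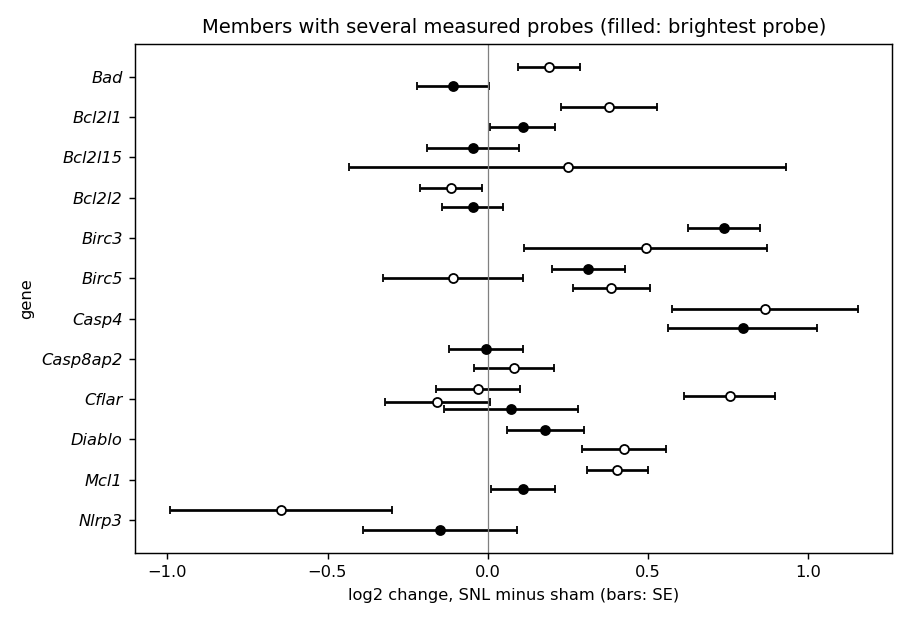
Log2 change, SNL minus sham, of each measured probe (horizontal axis) for the 12 genes with more than 1, from the fit over all probes. Filled points are the brightest probe of the gene, which stands for it elsewhere, open points the other probes and bars SE; the Cflar variant 2 probe at 0.75 lies apart from the other 3 Cflar probes.

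The genes around this core were counted in lists of the same pathways, and no list was tested as a set. Over all genes tested, 6.67% were higher and 5.48% lower at the unadjusted threshold, with a median of 0.03. In the p53 axis, 5 of 16 genes (31.25%) were higher at the unadjusted threshold and none lower, with a median of 0.11. Cdkn1a, the cell cycle inhibitor p21 and a p53 target like Pmaip1, had log2 signals of 0.96 and 1.14 in the SNL mice, against -0.998 and -1.40 in the sham mice, a change of 2.25 ± 0.19 (adjusted p = 0.0879). Sesn1 was at 0.46 ± 0.10 and Trp53inp1 at 0.50 ± 0.11 (adjusted p = 0.259 and 0.272). Among stress-induced genes upstream of the BH3-only genes, 2 of 14 were higher (14.3%) and 1 lower. Atf3, a transcription factor of injured neurons, rose by 5.22 ± 0.10 and passed (adjusted p = 0.0371), Foxo3 was at 1.65 ± 0.15 (0.0932) and Map3k12 (DLK), a kinase of axon injury signalling, at -0.32 ± 0.10 (0.375).

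Of the death receptors and their adaptors, 3 of 17 genes were higher (17.6%) and 2 lower, with a median of -0.02. Over all genes, 6.67% were higher and 5.48% lower. The receptor Fas had log2 signals of -1.85 and -1.63 in the SNL mice, against -2.62 and -3.09 in the sham mice, a change of 1.11 ± 0.21 (adjusted p = 0.227). The ligand Tnf was at 0.45 ± 0.09 (adjusted p = 0.244) and the ligand Tnfsf10 (TRAIL) at -0.70 ± 0.14 (adjusted p = 0.2504). In the list of mitochondrial release and DNA fragmentation, none of 14 genes was higher and 1, Cidea, was lower at -0.34 ± 0.12 (adjusted p = 0.410), while Dffa was at 0.27 and the channel Vdac1 at 0.21. Of 22 tested regulators of IAP and BCL2 proteins, 1 was higher (4.55%, against 6.67% over all genes) and none was lower. The higher gene was Pim1, a survival kinase, at 0.53 ± 0.11 (adjusted p = 0.256), while Aven stood at -0.54 and Xaf1 at 0.29.

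In the inflammasome and pyroptosis list, 5 of 18 tested genes were higher (27.8%) and 2 lower, with a median of 0.21. Over all genes the shares were 6.67% higher and 5.48% lower. Naip2, a sensor of bacterial secretion proteins, stood at -2.22 and -1.98 in the SNL mice, against -3.60 and -3.60 in the sham mice, a change of 1.497 ± 0.12 (adjusted p = 0.0887). Il1b, the cytokine that caspase 1 matures, was at 1.35 ± 0.20 and Txnip at 1.06 ± 0.17 (adjusted p = 0.170 and 0.186). Of 5 necroptosis genes, 1 was higher, the kinase Ripk3 at 1.59 ± 0.23 (adjusted p = 0.168), with Tlr3 at -0.31 and Ticam1 at 0.17. Of 5 tested granzyme genes, 1 was higher, perforin (Prf1) at 0.49 ± 0.12 (adjusted p = 0.298), with Gzma at 0.70 and Serpinb9 at -0.30.

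Markers of several cell types moved with surgery beside these genes. For comparison, 6.67% of all genes tested were higher and 5.48% lower at the unadjusted threshold. Of 18 microglia and macrophage markers, 16 were higher at the unadjusted threshold and none lower, and their summed signal, on the linear scale in units of the array's 75th percentile, was 93.3 and 82.1 in the SNL mice, against 53.5 and 55.0 in the sham mice. Of 11 tested T and NK cell markers, 5 were higher, with sums of 0.757 and 0.780 in the SNL mice, against 0.621 and 0.613 in the sham mice. No monocyte and neutrophil marker of 11 passed, with sums of 19.96 and 15.6 in the SNL mice, against 19.4 and 23.4 in the sham mice. Of 10 motor neuron markers 6 were lower, 2 of them at an adjusted p under 0.05, with sums of 19.9 and 17.1 in the SNL mice, against 27.5 and 24.6 in the sham mice. Of 10 endothelial and mural markers 2 were lower, with sums of 12.5 and 13.5 in the SNL mice, against 16.2 and 15.5 in the sham mice. Of 10 tested neuron markers 1 was higher, with sums of 87.6 and 79.5 in the SNL mice, against 72.7 and 77.7 in the sham mice. No B cell marker of 4 passed. The T cell marker Trac and the monocyte marker Ly6c2 were not tested.

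All 10 astrocyte and all 10 oligodendrocyte markers were measured in the cord, and their summed signals were 1.06-fold those of sham cord in SNL cord for both. The skeletal muscle sum was 25.7 and 1.73 in the SNL mice, against 2.39 and 3.13 in the sham mice, so SNL replicate 1 stood apart. The Schwann cell and sensory ganglion sum was 12.8 and 8.50 in the SNL mice, against 10.1 and 2.39 in the sham mice. The part of these markers in the differences of Bcl2a1c, Bcl2a1d, Pycard, Casp4, Birc3 and the other genes was not tested. In whole tissue, more cells of a type and more RNA per cell cannot be told apart.

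**Figure D5:**
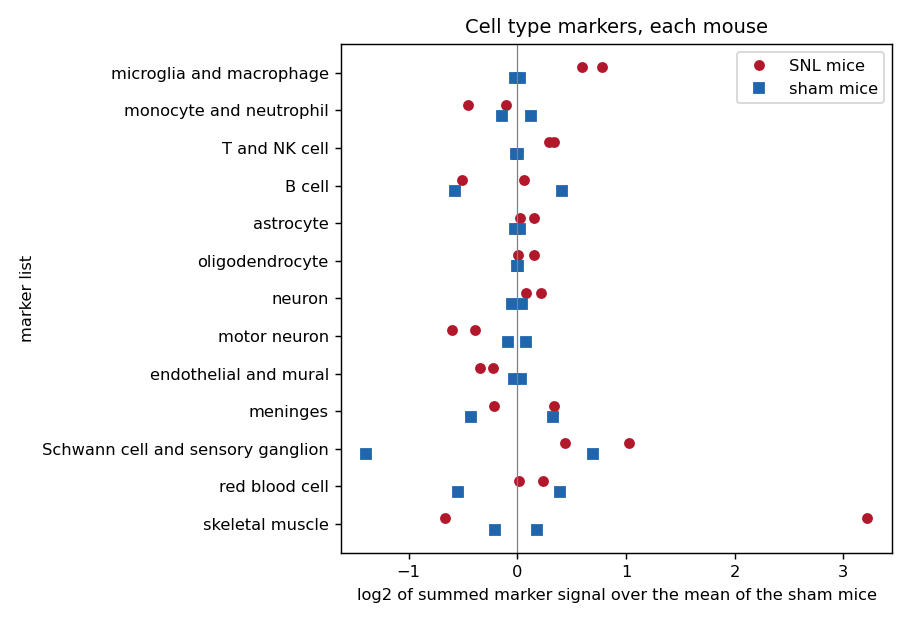
Log2 of the summed signal of each cell type marker list, relative to the mean of the sham mice (horizontal axis), for each mouse. Red circles are SNL mice and blue squares sham mice. The microglia and macrophage, the T and NK cell and the neuron sums are higher in both SNL mice. The motor neuron and the endothelial and mural sums are lower in both, and the skeletal muscle sum of SNL replicate 1 lies far to the right.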

How the data were processed

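Spinal cord RNA of 4 mice was hybridised to 4 arrays. The authors deposited scanner files of spot intensity made with Agilent Feature Extraction (10.7.3.1 per the file headers, 10.7.1.1 per the submitters' processing notes), with a surrogate signal for dim spots, and a table of log2 values that, set against the scanner values, correlates with them at an r that rounds to 1. That deposited log2 table is shifted by 0.122 to 0.132 in the median and not centred per gene, brighter spots have higher values, its column medians were -3.49 and -3.34 for SNL and -3.46 and -3.53 for sham, and over which spots its percentile was taken is unknown. Probe positions are mm9 per the file headers.

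Here the processed intensity values were put on the log2 scale, and the 75th percentile of the non-control spots was subtracted array by array. Spots marked as outliers were left out, and probes that then lacked a value on 1 or more arrays were not tested. Spots of a probe were averaged. A probe was tested if well above background on at least 2 arrays, and the probe with the highest mean stood for its gene. Symbols came from a RefSeq gene table through accession (26762 probes), symbol (3819) or synonym (639), and 24461 probes kept the name in the file. SNL and sham were compared in limma 3.58.1 (R 4.3.3; lmFit, eBayes, no covariate), with Benjamini-Hochberg adjustment over 29114 genes. The fit, tested on simulated data, had 2 residual and 1.66 prior degrees of freedom. The number of arrays limits the precision (median SE 0.13). The members and lists were chosen with earlier results of these data known. Genes are described with all 4 values if the unadjusted p was under 0.05, if the log2 change was at least 0.5 in size, or if they were among genes chosen for their role; values of 2 tested members are not reported here, though the counts include them. Of each pathway list, up to 3 genes with the smallest p are given. Birc5, the second probes, the letter patterns and the neighbours were chosen after values were seen.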

Additional observations from a re-analysis of the deposited data

How the results depend on the processing

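Each result was recomputed under 12 alternatives. The number of genes higher at an adjusted p under 0.05 was 0 as reported, 1 with normexp background correction (Pmaip1), 2 with no filter on dim probes (Pmaip1 and Bcl2a1c) and 3 with robust estimation and a variance trend (those and Bcl2a1d), and 0 under the others. The number lower at an unadjusted p under 0.05 was 1 as reported, 0 with normexp, 2 with quantile normalization, 0 with trend and robust estimation, and 0 to 1 with 1 mouse left out. The number higher was 4 to 10 with 1 mouse left out, 4 without sham replicate 2, and 8 to 10 under the other alternatives. The share of all genes higher at the unadjusted threshold moved too, to 12.4% with no filter on dim probes, 9.98% with normexp and 5.31% with quantile normalization, against 6.67% as reported. The share lower was 9.72% with quantile normalization, so equal counts do not stand for an equal excess. Shares of all genes at the adjusted threshold under the alternatives are not given here, so the adjusted counts have no such background. Where 1 mouse was left out, its group's lone mouse was assumed to vary like the other group. The median log2 change ran from 0.05 to 0.17. Quantile normalization set the median of all genes at -0.05, against 0.03 as reported. Xiap was at 0.10 with normexp, and Bcl2l1 and Casp8 were both at -0.023 with quantile normalization, each with the sign turned. With 1 mouse left out, Bcl2 ran from -0.14 to 0.039, Nlrp3 from -0.37 to 0.070, Casp8 from -0.10 to 0.21 and Xiap from -0.11 to 0.0081. The cause was not tested. Of the 41 genes, 24 kept their sign under all 12 alternatives and 17 changed it under at least 1. The 10 genes at an unadjusted p under 0.05 were among the 24. For those 10 the groups did not overlap, so leaving out 1 mouse could not turn the sign. With the replicate number as a block, 8 genes were higher and 1 lower at an unadjusted p under 0.05, against 5.73% and 3.97% of all genes. The lowest adjusted p in that limma fit was 0.277. The differences between replicates 1 and 2 correlated between groups at r = -0.03 over genes, so no large shift was shared by arrays of the same number. Whether the mice were paired in another way cannot be told from this.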
